A study of Mus musculus with 34 samples.

Results

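The LIF receptor and Stat3 target genes are 10 genes chosen by name: the receptor chains Lifr, Il6st and Osmr, the transcription factor Stat3, and 6 genes commonly listed among its targets, Socs3, Pim1, Pim3, Bcl3, Junb and Gbx2. All 10 were found by Ensembl identifier, among the 48709 genes counted in the Control and Mta123KO libraries and the 22018 in the single-mutant libraries. The rule that names them uses no measured value, but the list was chosen with earlier results of these data known. RNA-seq read counts per gene were given for 34 libraries of mouse embryonic stem (ES) cells of strain 129/Ola. The cells lack 1 or all of Mta1, Mta2 and Mta3, which encode alternative subunits of the nucleosome remodelling and deacetylation (NuRD) complex, a chromatin regulator.

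The Control and Mta123KO groups each hold 4 libraries labelled 2iL and 4 labelled 48h, made from 2 lines per genotype with 2 libraries per line and culture. 2iL is serum-free medium with an inhibitor of Mek, an inhibitor of Gsk3 and the cytokine LIF, and 48h is the state after the inhibitors and LIF were withdrawn for 48 hours in N2B27 medium. Mta123KO cells lack Mta1, Mta2 and Mta3: Mta2 was removed with guide RNAs and a targeting construct in cells already without Mta1, and the floxed Mta3 alleles were deleted with Cre. The Control cells are not plain wild type: they carry floxed Mta3 alleles and a single intact or floxed copy of Mta1, which the study's sources write in different ways. The single-mutant set, all labelled 2iL, holds 3 libraries each of Mta1_del/del and Mta3_del/del cells, which are Cre-deleted derivatives of the Mta1_flox/flox and Mta3_flox/flox parents, and of Mta2_KO and Mta2_WT cells, of which Mta2_KO is a separately derived primary line. Values are CPM, the reads of a gene scaled to the same library size, scaled with edgeR's TMM factors within each set, and values of a group are given in the order line 1 library 1, line 1 library 2, line 2 library 1 and line 2 library 2, or replicate 1 to 3.

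LIF binds the receptor chain Lifr, which pairs with Il6st (gp130), and the Jak kinases bound to these chains phosphorylate Stat3, which enters the nucleus and activates genes. Socs3, one of its immediate targets, inhibits signalling at the receptor, while Osmr pairs with Il6st to bind oncostatin M. In mouse ES cells this route supports self-renewal, alone with serum or beside the inhibitors in 2iL, so Socs3 and other targets are often used as a readout of LIF signalling.

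The culture names need care. For all 16 Control and Mta123KO libraries, the culture in a sample's label is the opposite of the culture in its file's name. The labels are followed here. If the file names are right, the differences between the labels and the interaction turn round, the comparisons of Mta123KO with Control keep their signs and swap cultures, and the single-mutant comparisons are not touched. Of 8 naive pluripotency genes (Nanog, Esrrb, Klf4 and others), 8 were higher in the Control under the 48h label, and of 8 genes of the exit from that state (Fgf5, Otx2, Pou3f1 and others), 8 were lower there. The naive list holds genes lowered, and the exit list genes raised, when the inhibitors and LIF are withdrawn. Of 8 feedback genes held down by the Mek inhibitor (Spry2, Dusp6 and others), 6 were lower there and 0 higher (median log2 fold change -2.69). Which name is right was not tested. Of the targeted genes, Mta2 was at 111-201 CPM in the Control and 4.71-10.4 CPM in Mta123KO, Mta3 at 36.4-74.9 and 9.51-23.8 CPM, and Mta1 at 23.4-48.6 and 15.5-30.0 CPM, with overlap. In the single mutants the targeted gene was at 38.5-48.0 CPM in Mta1_del/del (parent 69.0-104.7), 9.23-11.9 CPM in Mta2_KO (wild type 231-247) and 9.65-12.8 CPM in Mta3_del/del (parent 60.6-70.4). Gene counts include reads outside deleted exons, so they check the Mta1 and Mta3 deletions less directly. All 7 ES cell markers averaged at least 1 CPM in each of the 10 groups. Libraries held 37855790 to 57602285 counts in the Control and Mta123KO set and 13105820 to 40613585 in the single-mutant set. The 2 libraries of a line resembled each other more than libraries of different lines did, so p-values over 4 libraries measure the spread between these libraries and are given beside values by line.

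Between the culture labels in the Control, Socs3, Stat3, Bcl3, Lifr and Il6st were higher under the 48h label, Pim1 and Gbx2 lower, and Pim3 and Junb higher by less. Of the 9 members that passed the filter on low counts, 9 passed the test (edgeR quasi-likelihood, adjusted p under 0.05), 7 of them higher and 2 lower in the libraries labelled 48h; over all genes tested 58.5% passed, 29.5% higher and 29.0% lower. The 2 groups did not overlap for 8 of the 9 members, against 54.0% of all genes. A change of more than 1 log2 unit was also met by 7 of the 9, against 23.6% of all genes. The median log2 fold change was 1.22 over the 9 members and 0.0058 over all genes tested. Bulk RNA cannot tell a change in RNA per cell from a change in the share of cells of one kind.

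Socs3, the feedback inhibitor, stood at 7.73, 8.81, 8.94 and 11.6 CPM in the Control libraries labelled 2iL and at 44.1, 49.6, 36.7 and 52.9 CPM in those labelled 48h. Every library labelled 48h lay above every one labelled 2iL, with means of 9.26 ± 1.62 and 45.8 ± 7.07 CPM (SD, n = 4). The level was 5.004-fold higher under the 48h label, a log2 fold change of 2.32 ± 0.14 (SE), edgeR adjusted p = 1.54e-07. If the file names are right, the higher level belongs to the cells with LIF.

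Socs3 lies on the minus strand of chr11 (117966079-117970047, GRCm38, GENCODE vM21). Its promoter window is shown because Socs3 was the only member with a match to the core Stat-binding pattern TTCNNNGAA. The window runs from 250 bases before to 50 bases after the RefSeq start at 117969366 (chr11:117969317-117969616, minus strand, GRCm38.p6), it is written from 5′ to 3′, and the match is in capitals.
Socs3: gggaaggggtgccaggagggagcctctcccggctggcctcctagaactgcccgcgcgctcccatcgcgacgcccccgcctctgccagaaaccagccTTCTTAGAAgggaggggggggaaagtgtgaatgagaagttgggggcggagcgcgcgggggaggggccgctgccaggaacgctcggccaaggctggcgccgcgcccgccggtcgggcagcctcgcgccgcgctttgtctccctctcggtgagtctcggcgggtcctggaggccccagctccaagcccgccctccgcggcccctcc
The match lies at -154 from that start, and the annotated coding transcript begins 180 bases further downstream, outside this window. The bases between the window and that coding start were not searched, so neither pattern can be called absent there. Of 12 windows of the 10 members, 1 (8.33%) held TTCNNNGAA, as did 2726 (8.3%) of all 32851 windows of that length. The tighter pattern TTCCNGGAA was in none of the 12 and in 377 (1.15%) of all windows. Both patterns read the same on either strand, and any TTCCNGGAA is also a TTCNNNGAA. The share among the members was that among all promoters, and a match describes letters only, not binding.

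Stat3 itself, the transcription factor of the route, was at 22.1, 27.0, 19.7 and 23.1 CPM in the Control libraries labelled 2iL and at 109.6, 105, 96.4 and 99.7 CPM in those labelled 48h. The groups were far apart (4.52-fold, log2 fold change 2.18 ± 0.09 (SE), edgeR adjusted p = 1.26e-08). Bcl3, a nuclear IκB family protein, showed the widest step of the 10, from 1.52, 1.64, 1.64 and 2.31 CPM to 38.1, 36.4, 27.4 and 39.7 CPM. It was low under the 2iL label and 20.2-fold higher under the 48h label (log2 fold change 4.34 ± 0.16 (SE), edgeR adjusted p = 5.46e-09). Exons of 5 members overlap a gene on the opposite strand: 946 bases of Gbx2 with D130058E05Rik, 488 of Pim1 with Gm26885, 173 of Junb with Prdx2, 161 of Bcl3 with Gm16175 and 72 of Stat3 with Stat5a. The strand setting of the counting is not given in the sources used here, so reads of these 5 genes and of their partners cannot be told apart there.

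The receptor chains were higher under the 48h label too. Lifr, the ligand-specific chain, was at 47.9, 50.02, 49.6 and 46.2 CPM labelled 2iL and at 127, 104, 117 and 99.1 CPM labelled 48h in the Control. Il6st, the shared signalling chain gp130, was at 42.0, 47.3, 35.0 and 36.9 CPM and at 149, 118, 118 and 96.9 CPM. Neither gene's groups overlapped, and the log2 fold changes were 1.22 ± 0.08 (SE), edgeR adjusted p = 2.45e-07, for Lifr, and 1.60 ± 0.13 (SE), edgeR adjusted p = 1.63e-06, for Il6st. Osmr, the oncostatin M receptor chain, was close to undetected in these cells: its counts were 4, 0, 0 and 1 reads labelled 2iL and 4, 5, 6 and 8 reads labelled 48h. It stayed under 0.5 CPM in each of the 16 Control and Mta123KO libraries and did not pass the filter there.

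2 members took the other direction. Pim1, a serine/threonine kinase that supports survival and growth, was at 206, 288, 191 and 257 CPM labelled 2iL and 121, 128, 87.8 and 103 CPM labelled 48h. Gbx2, a homeobox transcription factor that can maintain ES cells downstream of Stat3, was at 49.3, 49.9, 73.4 and 75.0 CPM and 20.4, 17.97, 19.2 and 20.9 CPM. Neither gene's groups overlapped, and the log2 fold changes were -1.09 ± 0.15 (SE), edgeR adjusted p = 7.34e-05, for Pim1, and -1.64 ± 0.14 (SE), edgeR adjusted p = 2.75e-06, for Gbx2. Gbx2 also differed between the Control lines labelled 2iL, at 49.3 and 49.9 CPM in line 1 and 73.4 and 75.0 CPM in line 2. Pim1 and Gbx2 thus ran opposite to Socs3 between the same libraries.

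The remaining 2 targets moved little. Pim3, a paralogue of Pim1, was at 44.8, 54.7, 43.5 and 49.3 CPM labelled 2iL and 59.5, 62.6, 49.9 and 59.3 CPM labelled 48h, and these ranges overlapped (log2 fold change 0.28 ± 0.09 (SE), edgeR adjusted p = 0.0199). Without library 1_1 or library 2_2 Pim3 lost its call (log2 fold changes 0.23 and 0.28, edgeR adjusted p = 0.108 and 0.0692). Junb, an AP-1 subunit, was at 7.59, 5.82, 9.34 and 7.71 CPM and 11.2, 11.1, 11.3 and 12.4 CPM, with no overlap (log2 fold change 0.61 ± 0.13 (SE), edgeR adjusted p = 0.00186). Junb is also an immediate-early gene that answers many stimuli and handling, and 11 other such genes were set beside it: of 10 tested in the same comparison 2 were higher and 6 lower, Egr1 at -3.30, edgeR adjusted p = 0.00148. Egr1 is also on the list of feedback genes held down by the Mek inhibitor. The part of handling in the Junb value was not tested.

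**Figure D1:**
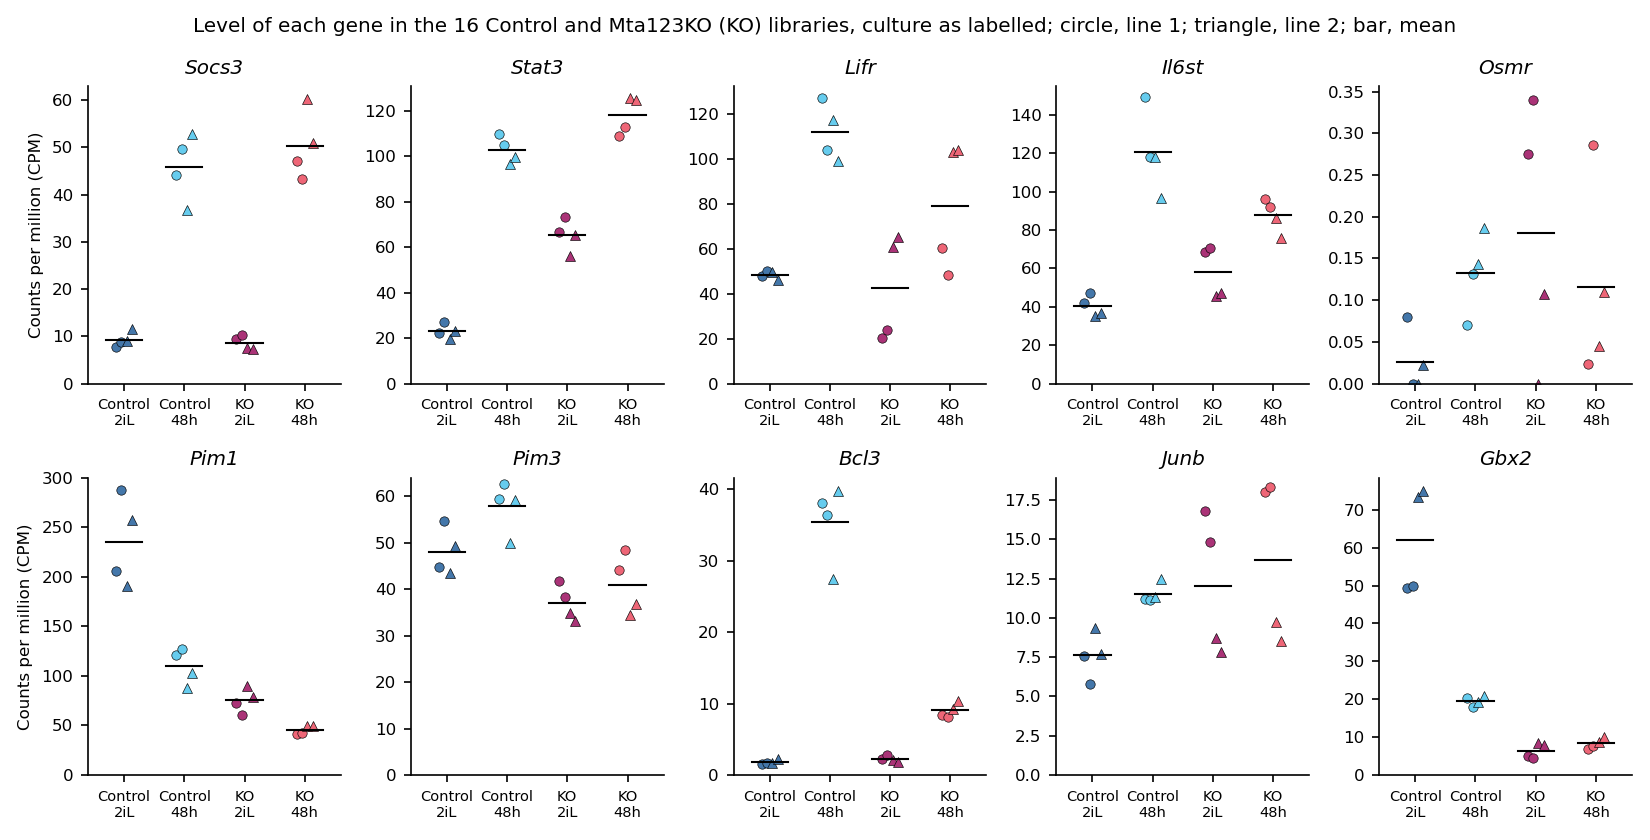
CPM (vertical axis, from 0) of each of the 10 members in the 16 Control and Mta123KO (KO) libraries, grouped by genotype and culture label, circles for line 1, triangles for line 2 and bars for group means. Socs3 rises from 7.73-11.6 to 36.7-52.9 CPM in the Control, and in Mta123KO every tested member separates by line, Lifr and Junb with the widest ratio.

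In Mta123KO cells Socs3 again differed widely between the labels, and fewer members passed the test. Of the 9 members tested 5 passed, 4 higher and 1 lower under the 48h label, against 22.4% of all genes (12.4% higher and 10% lower). The groups did not overlap for 5 of the 9, against 28.2% of all genes, and 2 of the 9 also changed by more than 1 log2 unit, against 9.46%. The median log2 fold change was 0.59 over the members and 0.0034 over all genes tested. With the libraries of each line summed, which leaves 2 lines per group, 0 genes of 24445 passed (3568 had an unadjusted p under 0.05), by edgeR, and of the members 4 had an unadjusted p under 0.05.

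Socs3 was at 9.38, 10.3, 7.57 and 7.30 CPM in the Mta123KO libraries labelled 2iL and 47.0, 43.3, 60.4 and 51.0 CPM in those labelled 48h. The 2 ranges did not overlap (log2 fold change 2.54 ± 0.15 (SE), edgeR adjusted p = 4.27e-05). Bcl3 rose from 2.19, 2.81, 2.09 and 1.85 CPM to only 8.41, 8.07, 9.29 and 10.4 CPM (log2 fold change 2.01 ± 0.16 (SE), edgeR adjusted p = 0.000152). Stat3 went from 66.6, 73.2, 55.9 and 65.2 CPM, already above the Control labelled 2iL, to 109, 113, 126 and 125 CPM (log2 fold change 0.85 ± 0.10 (SE), edgeR adjusted p = 0.000638).

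Among the receptor chains, Il6st was at 68.5, 70.4, 45.7 and 47.4 CPM labelled 2iL and 96.2, 92.1, 86.3 and 76.1 CPM labelled 48h in Mta123KO (log2 fold change 0.59 ± 0.16 (SE), edgeR adjusted p = 0.0308). This call was lost without any 1 of the 4 library numbers (adjusted p = 0.0602 to 0.108 in edgeR). Lifr was at 20.1, 23.9, 60.7 and 65.1 CPM and 60.2, 48.5, 103 and 104 CPM, low in both libraries of line 1 and high in both of line 2 under either label, and did not pass (log2 fold change 0.89 ± 0.43 (SE), edgeR adjusted p = 0.181). Because same-numbered libraries come from the same line, a fit with the replicate block takes out that line difference, and Lifr then passed (log2 fold change 0.996 ± 0.14 (SE), edgeR adjusted p = 0.000962). Within line 1 alone the Lifr difference was 1.30 and within line 2 alone 0.70 on the log2 scale, in fits added after the data were seen.

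Pim1 fell again, from 72.8, 61.1, 89.8 and 79.1 CPM to 41.4, 41.9, 49.6 and 49.8 CPM (log2 fold change -0.73 ± 0.13 (SE), edgeR adjusted p = 0.00455). Gbx2, which was lower under the 48h label in the Control, was at 5.01, 4.49, 8.37 and 8.01 CPM labelled 2iL and 6.88, 7.74, 8.69 and 10.1 CPM labelled 48h, and did not pass (log2 fold change 0.37 ± 0.23 (SE), edgeR adjusted p = 0.301). With the replicate block it passed as a small increase (0.40 ± 0.13 (SE), edgeR adjusted p = 0.037). Pim3 (0.14 ± 0.13 (SE), edgeR adjusted p = 0.47) and Junb (0.17 ± 0.34 (SE), edgeR adjusted p = 0.755) did not pass, and their groups overlapped. Of the 10 immediate-early genes tested beside Junb, 1 was higher and 0 were lower.

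**Figure D2:**
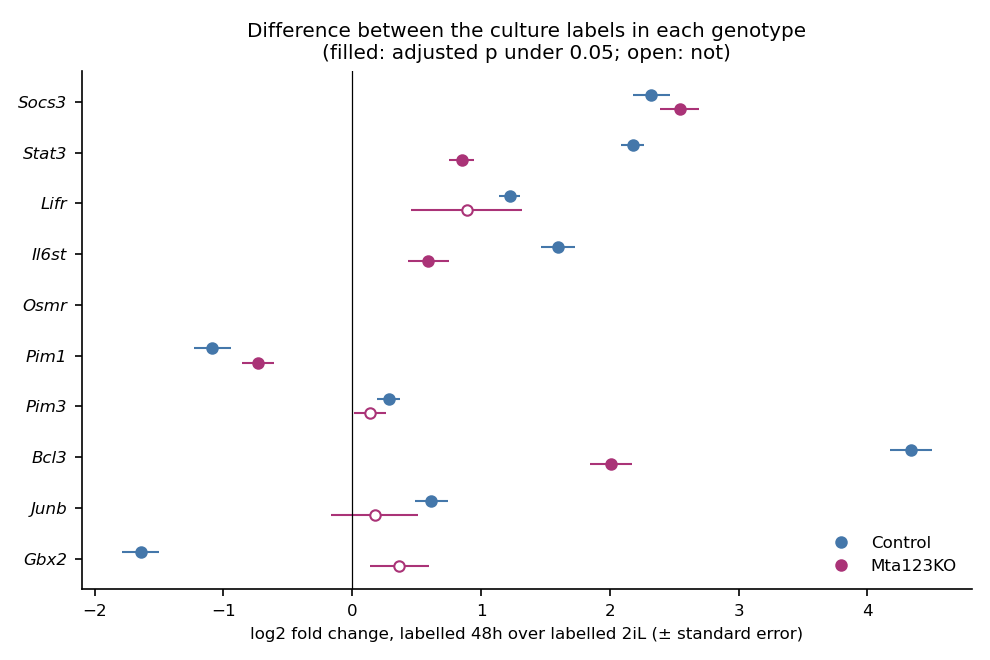
Log2 fold change (horizontal axis, libraries labelled 48h over those labelled 2iL) with its standard error for each member in Control (blue) and Mta123KO (purple), filled where the adjusted p was under 0.05; Osmr was not tested. Socs3 has values of 2.32 and 2.54, Bcl3 of 4.34 and 2.01, and Gbx2 lies at -1.64 in the Control and 0.37 in Mta123KO.

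The difference between the 2 label effects was itself tested, as the interaction of genotype and culture label. It passed for 4 of the 9 members, against 23.1% of all genes. The label effect in Mta123KO minus that in the Control was -2.30 ± 0.23 (SE), edgeR adjusted p = 4.7e-06, for Bcl3, and -1.31 ± 0.14 (SE), edgeR adjusted p = 7.78e-06, for Stat3. It was -0.99 ± 0.22 (SE), edgeR adjusted p = 0.00451, for Il6st, and 2.03 ± 0.28 (SE), edgeR adjusted p = 0.000105, for Gbx2. With the 2 libraries of a line summed, Bcl3 (-2.30 ± 0.27 (SE), edgeR adjusted p = 0.0171) and Stat3 (-1.32 ± 0.18 (SE), edgeR adjusted p = 0.0236) still passed, and Il6st and Gbx2 did not.

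For Socs3 the interaction was 0.24 ± 0.21 (SE), edgeR adjusted p = 0.469. It did not pass, and under spike-in scaling it was 0.02, so no difference in the Socs3 label effect between the genotypes was detected, which does not show that the effects were equal. Lifr (-0.31 ± 0.46 (SE), edgeR adjusted p = 0.678) and Pim3 (-0.12 ± 0.16 (SE), edgeR adjusted p = 0.646) did not pass either. Pim1 (0.37 ± 0.21 (SE), edgeR adjusted p = 0.227) and Junb (-0.42 ± 0.38 (SE), edgeR adjusted p = 0.476) did not pass in the fit without a block, and passed with a replicate block by line (0.39 ± 0.15 (SE), edgeR adjusted p = 0.0485, and -0.43 ± 0.14 (SE), edgeR adjusted p = 0.0173). With the libraries of a line summed, neither passed (0.37, edgeR adjusted p = 0.499, for Pim1, and -0.42, edgeR adjusted p = 0.767, for Junb).

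Under the 2iL label the Mta123KO cells had more Stat3 and far less Gbx2 and Pim1 than the Control, with no detected difference in Socs3. 5 of the 9 members passed, against 51.3% of all genes, so their share was near the background. The groups did not overlap for 4 of the 9 (50% of all genes), and 3 of the 9 also changed by more than 1 log2 unit (20.6%). These comparisons use the same Control libraries as the label comparison above. Stat3 was 2.88-fold higher, at 55.9-73.2 CPM against 19.7-27.0 CPM (log2 fold change 1.52 ± 0.11 (SE), edgeR adjusted p = 1.6e-05). Gbx2 was 9.46-fold lower, at 4.49-8.37 CPM against 49.3-75.0 CPM (log2 fold change -3.24 ± 0.25 (SE), edgeR adjusted p = 1.93e-05), and Pim1 3.07-fold lower, at 61.1-89.8 CPM against 191-288 CPM (log2 fold change -1.62 ± 0.16 (SE), edgeR adjusted p = 5.94e-05).

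The other values under the 2iL label were smaller or depended on the line. Il6st was at 58.0 ± 13.3 CPM in Mta123KO against 40.3 ± 5.54 CPM in the Control (SD, n = 4), with overlapping ranges (log2 fold change 0.54 ± 0.17 (SE), edgeR adjusted p = 0.0214). Line 1 of Mta123KO was at 68.5 and 70.4 CPM and line 2 at 45.7 and 47.4 CPM, against 35.0-47.3 CPM in the Control. The call was lost without library 1_1 (0.47, edgeR adjusted p = 0.0936), with Mta123KO line 2 alone (0.22, edgeR adjusted p = 0.120) and with lines summed (0.53, edgeR adjusted p = 0.178). Pim3 was lower (-0.36 ± 0.10 (SE), edgeR adjusted p = 0.0149) and lost its call without library 1_2 or 2_2 (-0.31 in each, adjusted p = 0.0616 and 0.0684 in edgeR). Socs3 (-0.08 ± 0.16 (SE), edgeR adjusted p = 0.686) and Bcl3 (0.35 ± 0.20 (SE), edgeR adjusted p = 0.165) did not pass, and Bcl3 passed without library 2_2 (0.57, edgeR adjusted p = 0.0464).

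Lines 1 and 2 of Mta123KO did not overlap for any member tested, under either label, and the ratio between them was widest for Lifr and Junb. Gbx2 labelled 2iL, for example, had a mean of 4.75 CPM in line 1 and 8.19 CPM in line 2. Lifr labelled 2iL was at 20.1 and 23.9 CPM in line 1, below every Control library, and at 60.7 and 65.1 CPM in line 2, above every one, so the mean difference of -0.17 ± 0.35 (SE) on the log2 scale describes neither line (edgeR adjusted p = 0.709). In fits added after seeing the data, each Mta123KO line was taken alone against all Control libraries of the same label. Lifr was then -1.13 ± 0.08 (SE), edgeR adjusted p = 3.69e-06, in line 1 and 0.39 ± 0.07 (SE), edgeR adjusted p = 0.000855, in line 2. Junb ran the other way, at 16.8 and 14.8 CPM in line 1 and 8.74 and 7.81 CPM in line 2 against 5.82-9.34 CPM in the Control. Junb did not pass over both lines (0.68 ± 0.26 (SE), edgeR adjusted p = 0.0536), but passed by DESeq2 (0.67, adjusted p = 0.0263) and in edgeR without library 2_1 or 2_2 (0.92 and 0.84, adjusted p = 0.0345 and 0.0409). A Control line and a Mta123KO line share no more than a number, and the cause of the split was not tested.

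Under the 48h label, Mta123KO cells had less Bcl3, Pim1 and Gbx2 than the Control. 6 of the 9 members passed, against 50% of all genes; the groups did not overlap for 5 of the 9 (48.4% of all genes), and 3 of the 9 also changed by more than 1 log2 unit (20.0%). Bcl3 was 3.89-fold lower in Mta123KO, at 8.07-10.4 CPM against 27.4-39.7 CPM (log2 fold change -1.96 ± 0.14 (SE), edgeR adjusted p = 8.56e-06). Pim1 was 2.39-fold lower, at 41.4-49.8 CPM against 87.8-128 CPM (log2 fold change -1.26 ± 0.13 (SE), edgeR adjusted p = 6.21e-05), and Gbx2 2.33-fold lower, at 6.88-10.1 CPM against 17.97-20.9 CPM (log2 fold change -1.22 ± 0.12 (SE), edgeR adjusted p = 6.93e-05). Pim1 and Gbx2 were thus below the Control under both labels.

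Il6st (-0.45 ± 0.13 (SE), edgeR adjusted p = 0.0164) and Pim3 (-0.49 ± 0.12 (SE), edgeR adjusted p = 0.00863) were lower by smaller amounts and each lost its call without 1 library number, Il6st without 2_1 (adjusted p = 0.0602 in edgeR) and Pim3 without 2_2 (adjusted p = 0.0522 in edgeR). Stat3 was close to the Control here, at 109-126 against 96.4-109.6 CPM, with overlapping ranges (log2 fold change 0.21 ± 0.07 (SE), edgeR adjusted p = 0.036). Its call was lost in several fits and the value went to 0.02 when libraries were scaled to the spike-in RNAs, which moved the median of all genes by -0.18. Socs3 (0.15 ± 0.13 (SE), edgeR adjusted p = 0.392), Lifr (-0.50 ± 0.23 (SE), edgeR adjusted p = 0.104) and Junb (0.25 ± 0.24 (SE), edgeR adjusted p = 0.414) did not pass. Lifr passed under spike-in scaling (-0.71 ± 0.25 (SE), edgeR adjusted p = 0.0249). It also passed with Mta123KO line 1 alone against all Control libraries (-1.03 ± 0.13 (SE), edgeR adjusted p = 0.000124).

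Other RNAs moved with these genotype differences. The 7 trophectoderm markers (Cdx2, Eomes and others) summed to 64.9-182 CPM in Mta123KO against 6.31-12.3 CPM in the Control labelled 2iL, and 7 of 7 were higher; labelled 48h they summed to 70.0-172 against 74.2-94.6 CPM. None of the 7 stayed under 0.1 CPM in every Mta123KO library. Naive genes summed to 408-535.5 CPM in Mta123KO against 158-242 CPM in the Control labelled 2iL (4 of 8 higher) and to 1889-2793 against 3681-4041 CPM labelled 48h (6 of 8 lower). Exit genes summed to 595-909 against 1432-2053 CPM labelled 2iL and 226-340 against 147-184 CPM labelled 48h. The 7 primitive endoderm markers summed to 16.8-28.2 against 8.87-22.6 CPM labelled 2iL and 18.7-21.7 against 4.65-5.76 CPM labelled 48h, where 3 of 6 tested were higher and 1 lower. Neural markers summed to 67.0-69.1 against 115-141 CPM labelled 2iL (4 of 6 lower) and 62.8-103.7 against 83.6-94.1 CPM labelled 48h, and fibroblast markers to 6.56-8.19 against 2.60-5.39 CPM and 2.86-5.52 against 1.73-2.05 CPM. Immediate-early genes beside Junb were higher in Mta123KO for 3 of 10 and lower for 2 labelled 2iL, and higher for 7 of 10 and lower for 1 labelled 48h. Their part in the members' values was not tested.

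**Figure D3:**
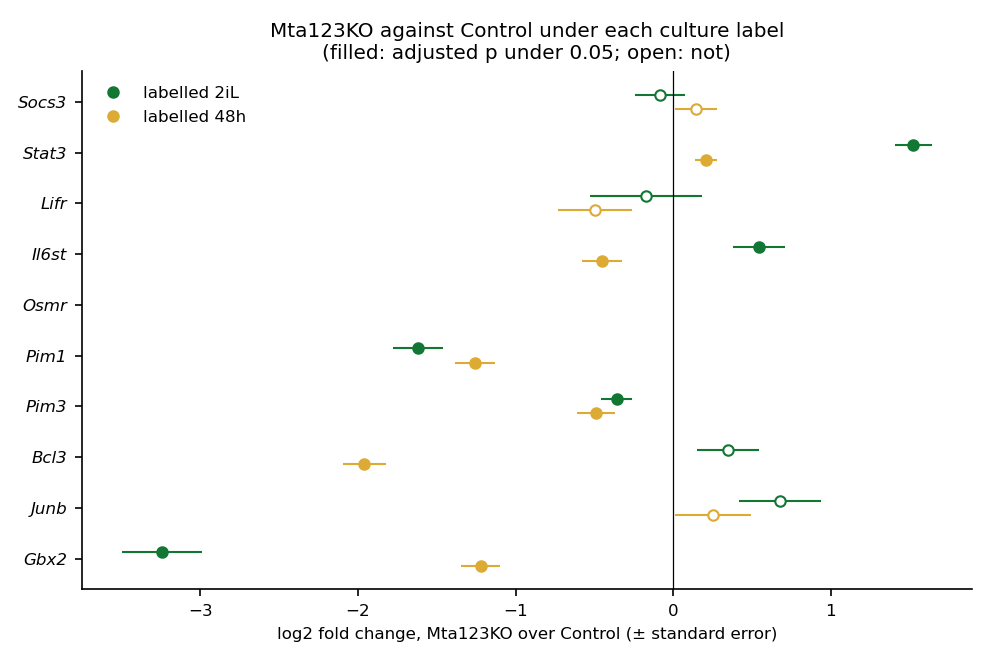
Log2 fold change of Mta123KO over Control (horizontal axis) with its standard error for each member, libraries labelled 2iL in green and labelled 48h in yellow, filled where the adjusted p was under 0.05; Osmr was not tested. Gbx2 lies at -3.24 and -1.22, Pim1 at -1.62 and -1.26, Stat3 at 1.52 and 0.21, and Bcl3 at 0.35 and -1.96.

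The rest of the pathway was followed through 52 other genes: ligands and receptor chains, kinases and adaptors, other Stat proteins, negative regulators and further Stat3 targets. Between the labels in the Control, 25 of 51 tested were higher under the 48h label and 16 lower (80.4% passed, against 58.5% of all genes), with a median log2 fold change of 0.19. All 11 further Stat3 targets passed, 7 higher and 4 lower. The 6 largest changes past both thresholds were in Osm, encoding oncostatin M (6.02, mean 0.141 to 9.18 CPM), Tfcp2l1 (5.64, 36.0 to 1783 CPM) and Klf4 (4.89, 4.67 to 137 CPM), both self-renewal transcription factors, Cntfr, the ciliary neurotrophic factor receptor chain (-5.15, 33.0 to 0.923 CPM), Jak3, a Jak kinase (3.72, 5.33 to 69.3 CPM), and Bcl6, a transcriptional repressor (3.36, 0.501 to 5.10 CPM). Their edgeR adjusted p ran from 2.91e-10 (Tfcp2l1) to 1.04e-06 (Bcl6).

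In Mta123KO 13 of the 51 were higher and 7 lower under the 48h label (39.2% passed, against 22.4% of all genes). The largest were Cntfr (-3.17, edgeR adjusted p = 0.00461), the kinase gene Sgk1 (2.84, edgeR adjusted p = 0.000442), Tfcp2l1 (2.33, edgeR adjusted p = 0.000449), Klf4 (2.06, edgeR adjusted p = 6.9e-05), the cytokine gene Il11 (-1.94, edgeR adjusted p = 0.0162) and Osm (1.57, edgeR adjusted p = 0.00876). The interaction passed for 22 of the 51 (43.1%, against 23.1% of all genes), 14 of them with a lower value in Mta123KO, and the 6 largest were Osm (-4.42), Tfcp2l1 (-3.29), Klf4 (-2.81), Jak3 (-2.55), Bcl6 (-2.52) and Il6ra (-2.47), the interleukin 6 receptor chain. Like Bcl3 and Stat3, all 6 had a positive log2 fold change in the Control and a smaller one in Mta123KO.

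Against the Control, 22 of 51 pathway genes were higher and 10 lower in Mta123KO labelled 2iL (62.7% passed, against 51.3% of all genes). The largest were Fos, an AP-1 and immediate-early gene (2.88, edgeR adjusted p = 0.0011), Lif, the ligand (2.68, edgeR adjusted p = 0.000107, mean 3.39 to 21.4 CPM), Sgk1 (-2.35, edgeR adjusted p = 3.35e-06), Tfcp2l1 (2.29, edgeR adjusted p = 4.99e-05), Klf4 (2.27, edgeR adjusted p = 0.000363) and Bcl6 (2.09, edgeR adjusted p = 0.000944). Labelled 48h, 13 of 50 were higher and 15 lower (56.0% passed, against 50%). The largest were Osm (-3.20, edgeR adjusted p = 2.09e-06), Fos (3.04, edgeR adjusted p = 0.000588), Jak3 (-2.40, edgeR adjusted p = 1.78e-06) and 3 inhibitors of cytokine signalling, Socs5 (1.98, edgeR adjusted p = 0.000324), Cish (1.85, edgeR adjusted p = 0.000492) and Socs1 (1.73, edgeR adjusted p = 9.85e-05). Of all 14 negative regulators, 5 were higher and 5 lower labelled 48h (median log2 fold change -0.06), Pias3 at -1.04, edgeR adjusted p = 4.83e-05. Cish and Socs1 were low, at means of 2.64 and 6.27 CPM in Mta123KO against 0.73 and 1.91 CPM in the Control. Socs3 was not among the inhibitors that passed in either comparison.

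Levels can be set between genes only per length, here CPM per kilobase of exon. In the Control labelled 2iL, Pim1 was highest (70.0 ± 13.4), followed by Gbx2 (28.4 ± 6.52), Pim3 (19.8 ± 2.096) and Lifr (4.49 ± 0.16). Il6st (3.63), Junb (3.31), Socs3 (3.20) and Stat3 (2.41) came next and overlapped with their neighbours in that order, then Bcl3 (0.72) and Osmr (0.0021). Under the 48h label Pim1 (32.7 ± 5.36) and Pim3 (23.8 ± 2.26) led, and Socs3 (15.9), Bcl3 (14.3), Il6st (10.9), Stat3 (10.8), Lifr (10.4) and Gbx2 (9.02) followed, with overlapping ranges between neighbours, then Junb (5.01) and Osmr (0.011). All are means with SD over 4 libraries.

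The genes whose log2 CPM ran most like that of Socs3 over the 16 libraries, of 17067 with a mean of at least 1 CPM, were Nanog (Pearson r = 0.98), Jam2 (0.98), Lima1 (0.98), Map1lc3b (0.97) and Echdc2 (0.97). Nanog, a pluripotency factor, went from a mean of 67.5 to 933 CPM between the labels in the Control and from 65.4 to 688 CPM in Mta123KO. Among the members, Bcl3 ranked 332 (r = 0.89), Il6st 782 (0.84), Stat3 1177 (0.79) and Lifr 2132 (0.69), while Gbx2 (-0.22) and Pim1 (-0.50) ran against Socs3. The 16 points share 4 groups and 4 lines, so r mainly restates the group means and is given as a description.

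The single mutants, all labelled 2iL, gave different calls in each pair, and the pairs were not tested against each other. The pairs also differ in spread and in how their lines were made, not only in the gene deleted. Between Mta1_del/del and Mta1_flox/flox 0 of 9 members tested passed, against 0% of 14561 genes in edgeR; 50 genes had an unadjusted p under 0.05, and DESeq2 called 1 gene, no member. The deleted gene Mta1 did not pass in edgeR either, although its ranges did not overlap (38.5-48.0 against 69.0-104.7 CPM). The absence of calls therefore does not show equal levels. Socs3 was the member nearest to a difference, at 93.4, 89.4 and 131 CPM in Mta1_del/del and 63.1, 60.1 and 68.2 CPM in Mta1_flox/flox. Its ranges did not overlap, and the log2 fold change was 0.71 ± 0.18 (SE), edgeR adjusted p = 1. Junb (0.44 ± 0.30), Bcl3 (0.32 ± 0.22) and Stat3 (0.28 ± 0.19) had positive log2 fold changes (SE) with overlapping groups. Same-numbered libraries of this pair deviated together, and the block changed no call.

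In Mta2_KO cells Socs3 and Gbx2 were well below Mta2_WT. 6 of the 10 members passed, 2 higher and 4 lower, against 47.8% of all genes. Gbx2 was at 11.9, 11.9 and 12.8 CPM in Mta2_KO and 43.0, 38.0 and 42.4 CPM in Mta2_WT, 3.39-fold lower (log2 fold change -1.76 ± 0.07 (SE), edgeR adjusted p = 8.89e-08). Socs3 was at 20.9, 21.5 and 20.7 CPM against 51.0, 51.8 and 51.3 CPM, 2.45-fold lower (log2 fold change -1.29 ± 0.05 (SE), edgeR adjusted p = 5.39e-08). The libraries of each group lay close together, and no group overlapped for either gene. For Socs3 the spread within each group was no wider than counting error, so its SE and p-value say little about the spread between cultures.

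Stat3 was lower in Mta2_KO as well, at 73.0, 77.2 and 74.1 CPM in Mta2_KO and 101, 108 and 103 CPM in Mta2_WT (log2 fold change -0.48 ± 0.04 (SE), edgeR adjusted p = 2.05e-05). Pim1 was lower by less (-0.25 ± 0.05 (SE), edgeR adjusted p = 0.00202). Lifr was higher, at 105, 104 and 99.0 CPM against 77.1, 82.8 and 75.7 CPM (0.38 ± 0.05 (SE), edgeR adjusted p = 0.000184), and Junb too, from a low level, at 4.02, 4.38 and 3.92 CPM against 1.90, 2.44 and 2.04 CPM (0.94 ± 0.14 (SE), edgeR adjusted p = 0.000527). Il6st, Pim3, Bcl3 and Osmr did not pass, Bcl3 at -0.29 ± 0.12 (SE), edgeR adjusted p = 0.0698. When all 18 single-mutant libraries shared 1 estimate of spread, Socs3, Gbx2 and Junb passed and Stat3 (-0.47, edgeR adjusted p = 0.1004), Lifr (0.39, 0.183) and Pim1 (-0.24, 0.290) did not. The labels do not say that the 3 libraries came from separate cultures, and this mutant is 1 line against another. The 7 neural markers summed to 288-301 CPM in Mta2_KO against 81.0-93.7 CPM in Mta2_WT, 4 higher and 2 lower of 6 tested, and their part in these values was not tested.

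Of the pathway list in Mta2_KO, 13 of 50 genes tested were higher and 18 lower (62.0% passed, against 47.8% of all genes). Il6ra (-2.46, edgeR adjusted p = 1.46e-07), the proto-oncogene Myc (-2.10, edgeR adjusted p = 6.87e-05), Stat5a (-1.94, edgeR adjusted p = 2.91e-06) and Klf4 (-1.34, edgeR adjusted p = 1.29e-05) were lower, and the inhibitors Cish (1.48, edgeR adjusted p = 0.00243) and Socs1 (1.38, edgeR adjusted p = 0.00417) higher. Stat5a shares 72 exon bases with Stat3 on the opposite strand. The direction of Socs1 and Cish was opposite to that of Socs3. Of all 14 negative regulators, 5 were higher and 4 lower in Mta2_KO (median log2 fold change 0.0066).

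In Mta3_del/del cells 2 of the 10 members passed, the receptor chains Il6st and Lifr, a share near the 16.2% of all genes. The other receptor chain, Osmr, had a log2 fold change of -1.92 and did not pass. Il6st was at 233, 229 and 184 CPM in Mta3_del/del and 139, 99.3 and 153 CPM in Mta3_flox/flox (log2 fold change 0.67 ± 0.16 (SE), edgeR adjusted p = 0.0312). Lifr was at 124, 127 and 132 CPM in the mutant and at 98.2, 62.3 and 86.9 CPM in the parent (log2 fold change 0.57 ± 0.15 (SE), edgeR adjusted p = 0.0394). No group overlapped for either chain, but leaving out replicate 1 or replicate 3 ended both calls (Il6st 0.68 and 0.91, Lifr 0.76 and 0.60) and left 2 genes called over the whole table.

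Stat3 was also higher in each Mta3_del/del library than in any parent library, at 140.0, 119 and 192 CPM against 111, 71.6 and 99.1 CPM. It did not pass (0.62 ± 0.19 (SE), edgeR adjusted p = 0.0588) but passed by DESeq2 (0.62, adjusted p = 0.0147). Gbx2 was uneven: 2 Mta3_del/del libraries were at 38.2 and 39.5 CPM and replicate 2 at 9.20 CPM, below the parent's 11.3, 10.7 and 10.02 CPM. The log2 fold change was 1.37 ± 0.44 (SE), edgeR adjusted p = 0.0646, and without replicate 2 it was 1.80 (edgeR adjusted p = 0.00547), so 1 library decides this value. Without replicate 2, 6 of the 10 members passed, beside 3691 of 15288 genes over the whole table.

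Socs3 (0.35 ± 0.29 (SE), edgeR adjusted p = 0.405), Bcl3 (0.53 ± 0.25 (SE), edgeR adjusted p = 0.165), Junb (0.21 ± 0.20 (SE), edgeR adjusted p = 0.471), Pim1 (-0.30 ± 0.11 (SE), edgeR adjusted p = 0.0952) and Pim3 (-0.29 ± 0.24 (SE), edgeR adjusted p = 0.402) did not pass. Osmr had 5, 15 and 3 reads in Mta3_del/del and 22, 19 and 32 in the parent, 0.66-1.49 CPM there, its highest group mean in the series, and did not pass (-1.92 ± 0.63 (SE), edgeR adjusted p = 0.0658). The 7 fibroblast markers summed to 12.1-59.2 CPM in the same parent libraries and to 5.67-6.68 CPM in Mta3_del/del, where Lum and Dcn stayed under 0.1 CPM in every library. Their part in the Osmr value was not tested. Of the pathway list 4 of 51 were higher and 1 lower (9.80% passed, against 16.2% of all genes), with Myc (2.06, edgeR adjusted p = 0.0285) and Osm (1.17, edgeR adjusted p = 0.0208) past both thresholds.

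**Figure D4:**
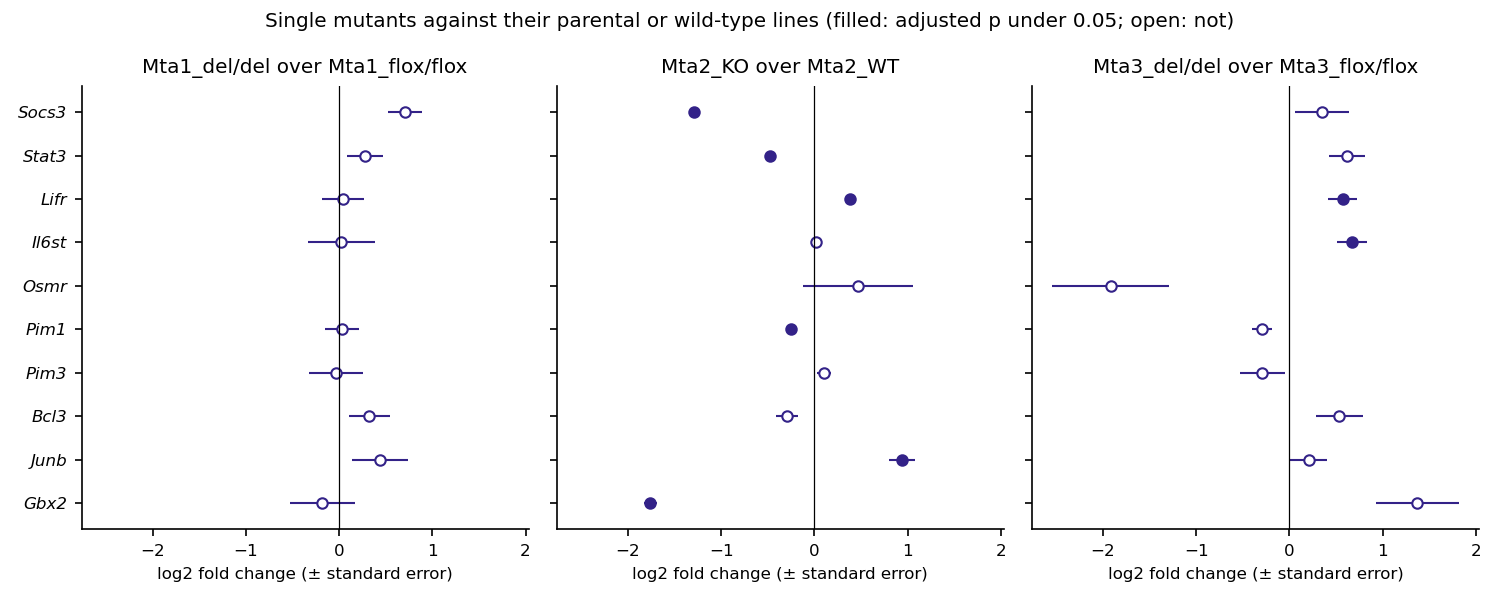
Log2 fold change (horizontal axis) with its standard error for each member in Mta1_del/del, Mta2_KO and Mta3_del/del over their parental or wild-type libraries, filled where the adjusted p was under 0.05; Osmr was not tested for Mta1. Gbx2 lies at -1.76 in Mta2_KO and 1.37 in Mta3_del/del, and Socs3 at 0.71, -1.29 and 0.35.

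The single-mutant libraries carry the 2iL label, which gives a second view of the level of the members under that label. The 2 sets were counted on different gene lists, scaled separately and sequenced differently (paired-end for Control and Mta123KO, single-end for the single mutants), so levels are set side by side and not tested. Socs3 ranged from 20.7 to 131 CPM over the 18 single-mutant libraries, with a median of 60.1 CPM. All 18 lay above the 7.73-11.6 CPM of the Control labelled 2iL, and 4 lay within the 36.7-52.9 CPM of the Control labelled 48h. Stat3 ranged from 71.6 to 219.5 CPM, all 18 above the Control labelled 2iL (19.7-27.0 CPM) and 4 within the Control labelled 48h (96.4-109.6 CPM).

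Bcl3 ranged from 10.03 to 64.1 CPM in the single-mutant set, all 18 above the 1.52-2.31 CPM of the Control labelled 2iL, and 6 within the 27.4-39.7 CPM of the Control labelled 48h. Lifr (62.3-224 CPM) and Il6st (99.3-308 CPM) likewise lay above the Control labelled 2iL in all 18 libraries. Gbx2, at 9.20-43.1 CPM, lay below the 49.3-75.0 CPM of the Control labelled 2iL in all 18, and 2 fell within the 17.97-20.9 CPM of the Control labelled 48h. For these 6 members no single-mutant library, although labelled 2iL, fell within the range of the Control labelled 2iL. Pim1 (79.0-287 CPM), Pim3 and Junb did overlap that range, in 6, 4 and 4 libraries. The 8 naive genes summed to 158-242 CPM in the Control labelled 2iL, 3681-4041 CPM in the Control labelled 48h and 3171-5776 CPM in the single-mutant libraries.

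**Figure D5:**
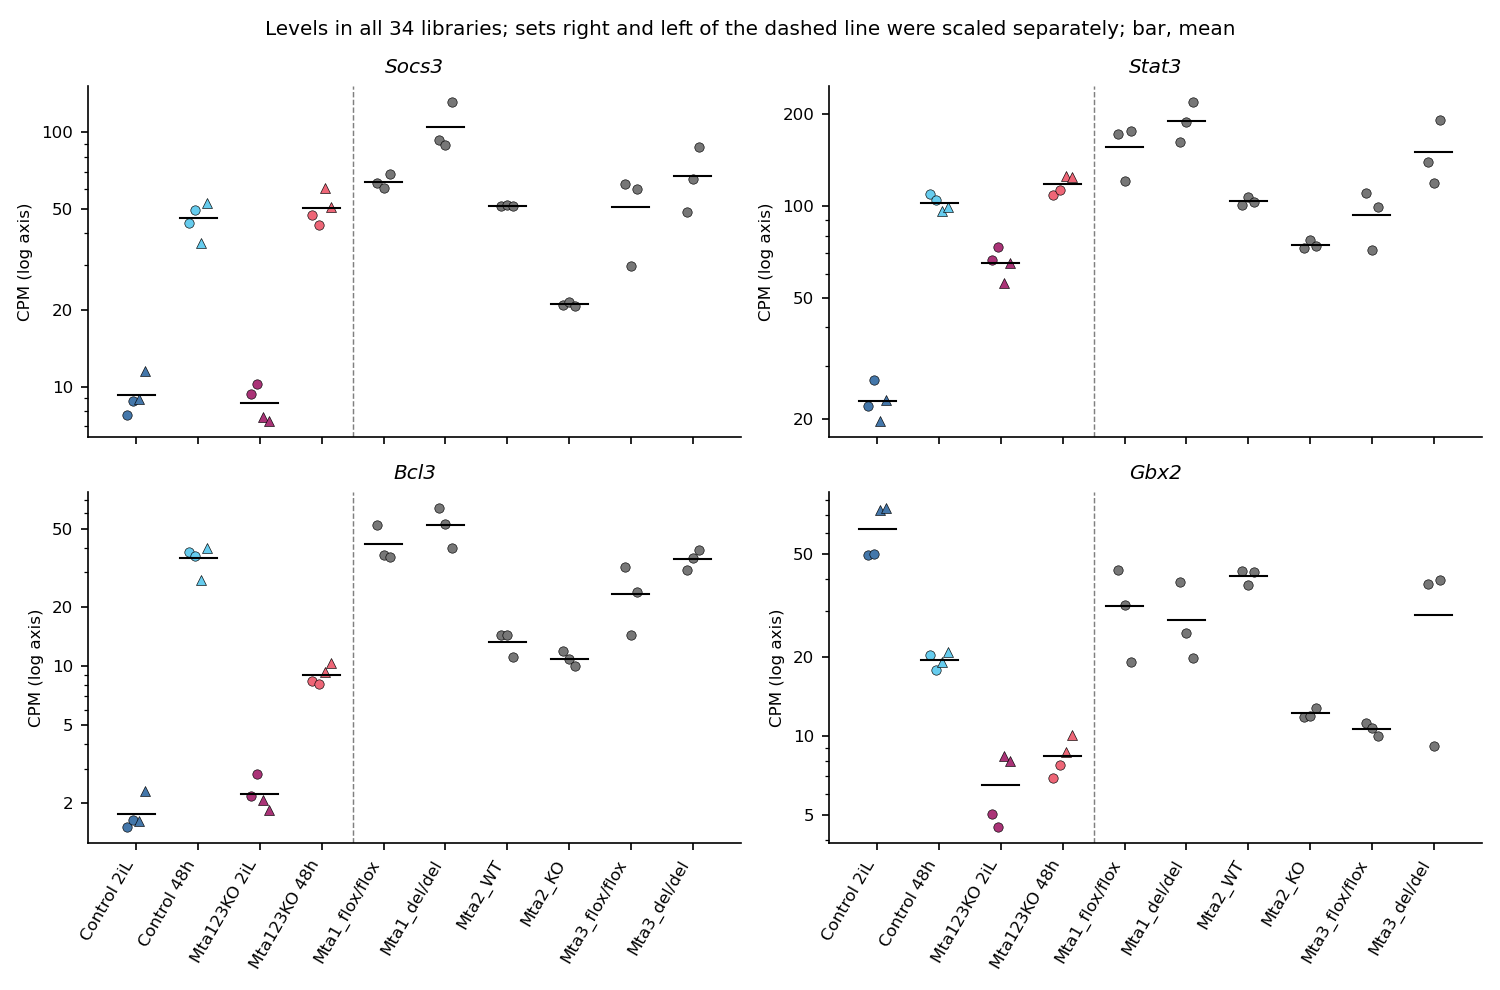
CPM (vertical log axis) of Socs3, Stat3, Bcl3 and Gbx2 in all 34 libraries by group, bars for group means, the separately scaled single-mutant set to the right of the dashed line. All 18 single-mutant libraries, labelled 2iL, lie above the Control labelled 2iL for Socs3, Stat3 and Bcl3 and below it for Gbx2.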

How the data were processed

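RNA was sequenced in 34 libraries of mouse ES cells, and groups, lines and replicate numbers were taken from the sample labels. The authors deposited read counts per gene, 1 file per library, without normalization; their methods name Trim Galore!, Tophat, GRCm38/mm10, featureCounts and Ensembl annotation, and the processing notes name the same tools. The strand setting and the handling of multiply aligned reads are not given in the sources used here. The 10 members, the other gene lists and the rule for named genes (all members, and pathway genes past both thresholds, at most 6 per comparison by size) were chosen with earlier results of these data known.

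The test was edgeR's (version 4.0.16, with limma 3.58.1 in R 4.3.3) on the deposited counts: TMM factors, filterByExpr, quasi-likelihood F test, Benjamini-Hochberg adjustment over all genes tested, only the compared groups in a fit. A gene passed at an adjusted p under 0.05. Log2 CPM used a prior count of 2, exon lengths and coordinates came from GENCODE vM21, and promoter windows from RefSeq. Alternatives were DESeq2 1.42.0, RLE factors, no filter, replicate blocks, summed lines, spike-in scaling, 1 fit per set and leaving out replicates; fits by line were chosen after seeing the data. Simulated counts with 200 changed genes were used to test the procedure. Figures used matplotlib 3.10.9 under Python 3.11.15.

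The pairing was checked by the correlation of same-numbered libraries' deviations from their group means. It was at least 0.27 in the Control and 0.55 in Mta123KO between the labels, where a number marks a shared line, and at least 0.43 in the Mta1 pair. Between Mta123KO and Control, and in the Mta2 and Mta3 pairs, the lowest was under 0. No 2 libraries of a group agreed within counting noise (chi-square per degree of freedom 4.41 or more), so none were merged and each counted as 1 sample. That check cannot show that the libraries came from separate cultures. Counting error is not small beside the spread between libraries for Osmr (0 to 32 reads per library), for Bcl3 in the Control and Mta123KO labelled 2iL (76 to 124 reads) and for Junb in Mta2_WT (64 to 94 reads). The same held for other genes whose libraries lay close together. Among them were Socs3 in Mta2_KO (618 to 798 reads) and Mta2_WT (1610 to 1995 reads), and Gbx2 in Mta2_KO (381 to 452 reads).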

Additional observations from a re-analysis of the deposited data

Results flagged for a closer look

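Of the 40 sets of 4 libraries (10 members in 4 groups), 1 held a library set apart from the other 3 by Dixon's criterion: Bcl3 in the Control labelled 2iL, where library 2_2 had 2.31 CPM and the others 1.52-1.64 CPM, a gap of 0.844 of the range. Chance gives about 1 such set in 20. The effect of the culture label differed between Mta123KO and the Control, by the interaction in edgeR, for Stat3 (-1.31 on the log2 scale), Il6st (-0.99), Bcl3 (-2.30) and Gbx2 (2.03), each as Mta123KO minus Control.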

How the results depend on the processing

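The number of members called kept within 1.5 times under most alternatives. With the libraries of a line summed it went from 5 to 0 between the labels in Mta123KO, from 4 to 2 for the interaction, and for Mta123KO against Control from 5 to 3 labelled 2iL and from 6 to 3 labelled 48h; fewer samples enter that fit. Line 1 alone gave 8 members between the labels in Mta123KO. For Mta2_KO, 1 fit of all 18 libraries gave 3 in place of 6. For Mta3_del/del, DESeq2 and no filter each gave 4 in place of 2, and leaving out a replicate gave 0 to 6. Over all genes DESeq2 called 3584 of 15522 there, no filter 2804 of 21483, and the fit without replicate 2 3691 of 15288. Over all genes, the number called between the labels in Mta123KO went from 4817 to 9144 with the replicate block, 10252 with a block by line, 2795 under spike-in scaling, and 2518 to 3126 without 1 library number, and line 1 or 2 alone gave 10019 or 8998. For the interaction it went from 5306 to 9148 (block by line), 710 (lines summed), 3364 (spike-in scaling) and 2975 or 3277 (without 1_1 or 1_2). Summed lines took Mta123KO against Control from 11115 to 3758 labelled 2iL and from 10548 to 4085 labelled 48h. The fit of all 18 libraries took Mta2_KO from 7460 to 2622, and Mta3_del/del went from 2508 to 2 without replicate 1 or 3. Unless a reason is given, the cause was not tested.

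The replicate block gave 9 members called between the labels in the Control and 7 in Mta123KO, and 4 for the interaction. It gave 5 for Mta123KO against Control under either label, 0 for Mta1, 7 for Mta2 and 3 for Mta3. Over all genes it called 13565 of 21240 between the labels in the Control, 9144 of 21505 in Mta123KO and 5901 of 22973 for the interaction. For Mta123KO against Control it called 9981 of 21651 labelled 2iL and 9692 of 21079 labelled 48h. It called 0 of 14561 for Mta1, 6867 of 15602 for Mta2 and 2468 of 15522 for Mta3. Beyond the calls given with the results, it ended that of Stat3 labelled 48h (0.21, edgeR adjusted p = 0.0913). It added Bcl3 in Mta2_KO (-0.29, edgeR adjusted p = 0.0390) and Stat3 in Mta3_del/del (0.62, edgeR adjusted p = 0.0365). A block by line added Lifr labelled 48h (-0.57, edgeR adjusted p = 0.0410). In Mta123KO against Control both blocks pair libraries by number alone, and lines of the 2 genotypes share no more than that number.

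Of 852 single-gene values under an alternative, 768 kept side and direction, 47 lost and 35 gained a call, and 2 turned round. Those 2 were Lifr labelled 2iL (0.39) and Junb labelled 48h (-0.32), with Mta123KO line 2 alone against all Control libraries. Among those that kept, 17 were uncalled and changed sign. Spike-in scaling moved the median of all genes by 0.18 between the labels in the Control, by -0.22 for the interaction and by -0.18 for Mta123KO against Control labelled 48h. Without the filter, Osmr passed between the labels in the Control, on 0 to 8 reads per library. All promoters holding a Stat pattern made up 8.3% for TTCNNNGAA and 1.15% for TTCCNGGAA.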
